A study of Homo sapiens with 2 samples.

Results

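The genes described here are the protein-coding genes on human chromosome 19 whose symbols are ZNF followed by a digit. RefSeq's gene table (assembly GRCh38.p14) holds 250 of them, out of 19974 protein-coding genes on chromosomes 1 to 22 and X. They are 17.2% of the 1451 protein-coding genes on chromosome 19 and 250 of the 517 such ZNF genes on all these chromosomes. The data are a chromatin immunoprecipitation sequencing (ChIP-seq) experiment with an antibody to WSTF in SW620, an established line of human colorectal cancer cells from a lymph node metastasis. The series names 2 samples of SW620, titled with and without the suffix IP, and the file analysed here is 1 list of 2697 peak summits for the line. Knockdown of WSTF is named in the series title but overexpression in the design text, so the amount of WSTF in these cells is not known. Neither replicate lists nor a second condition entered the analysis, and how deeply the library was sequenced is unknown. All comparisons below are therefore between genes within that list, as counts and shares with exact 95% Clopper-Pearson intervals that cover counting error only, and no test between samples could be made.

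WSTF, the product of BAZ1B, is a bromodomain protein that works with the ISWI ATPase SMARCA5 in remodelling nucleosomes, and it has been described at replicating heterochromatin. ZNF genes encode proteins with tandem C2H2 zinc fingers, which bind DNA. In many of them a KRAB domain recruits the corepressor TRIM28 and, through it, the histone methyltransferase SETDB1, HP1 proteins and DNA methylation. The family expanded by tandem duplication, so its chromosome 19 members lie in clusters of related genes, many of which silence retrotransposons. The genes are themselves known for unusual chromatin, with active marks at their promoters and the heterochromatin mark H3K9me3 over their 3′ zinc finger exons.

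For some of these genes, the place of the summit can be read from the sequence around a start. RefSeq promoter windows, which run from 250 bases before to 50 after a listed start, were at hand for 219 of the 250 genes. In 7 of these genes a summit fell inside a 300-base window. The 4 with the highest scores are printed because they show the DNA under the summit itself. All 4 summits lie upstream of the start, whereas 17 of the 25 with a listed start lay downstream. The printed windows are therefore not typical of the genes with a summit. The windows are chr19:55605397-55605696 for ZNF865, chr19:42075916-42076215 for ZNF574, chr19:57363301-57363600 for ZNF547, all on the plus strand, and chr19:9768689-9768988 on the minus strand for ZNF846 (RefSeq, GRCh38.p14). Each is written 5′ to 3′ along the gene, and the capitals mark 21 bases, the summit base with 10 on either side.
ZNF865: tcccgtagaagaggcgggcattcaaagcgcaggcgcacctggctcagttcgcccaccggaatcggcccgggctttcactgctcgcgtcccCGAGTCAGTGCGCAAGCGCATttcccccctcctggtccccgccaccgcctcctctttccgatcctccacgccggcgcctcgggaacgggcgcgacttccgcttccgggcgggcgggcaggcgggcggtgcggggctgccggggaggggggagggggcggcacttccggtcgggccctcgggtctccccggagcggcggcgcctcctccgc
ZNF574: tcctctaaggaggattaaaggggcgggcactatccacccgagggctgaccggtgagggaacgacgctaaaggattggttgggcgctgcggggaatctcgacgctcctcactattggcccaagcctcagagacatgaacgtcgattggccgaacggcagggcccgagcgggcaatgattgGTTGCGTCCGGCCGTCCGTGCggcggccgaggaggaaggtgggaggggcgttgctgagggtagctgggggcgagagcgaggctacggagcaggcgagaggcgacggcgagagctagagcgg
ZNF547: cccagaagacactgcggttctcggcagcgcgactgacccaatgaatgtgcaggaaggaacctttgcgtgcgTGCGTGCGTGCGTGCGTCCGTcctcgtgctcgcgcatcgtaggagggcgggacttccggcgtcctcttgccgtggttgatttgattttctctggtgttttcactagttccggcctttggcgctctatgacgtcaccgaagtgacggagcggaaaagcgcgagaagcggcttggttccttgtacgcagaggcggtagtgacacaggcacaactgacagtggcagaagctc
ZNF846: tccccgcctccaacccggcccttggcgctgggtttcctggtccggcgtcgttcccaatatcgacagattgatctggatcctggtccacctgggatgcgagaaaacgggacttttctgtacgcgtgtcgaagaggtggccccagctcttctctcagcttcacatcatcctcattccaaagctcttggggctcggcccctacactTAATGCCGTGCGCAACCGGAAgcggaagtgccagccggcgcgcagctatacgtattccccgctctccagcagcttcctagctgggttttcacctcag

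All 4 windows held more CpG, the dinucleotide that is methylated in silenced promoters, than the median window of the table. Over its 35116 windows the median was 14 (quartiles 4 and 28). The ZNF846 window lay between those quartiles, near the median of 20 at chromosome 19 ZNF starts with no summit within 1 kb. The ZNF865 window held 40 CpG and was 74.7% G and C, the ZNF574 window 31 CpG and 65.3%, the ZNF547 window 30 CpG and 59.0%, and the ZNF846 window 22 CpG and 59.3%. Where a summit lay at most 1 kb from the start, windows over all protein-coding genes had a median of 31 CpG (quartiles 24 and 38). Only the ZNF865 window exceeded that median. The ZNF574 window equalled it, the ZNF547 window lay just below it, and the ZNF846 window lay under the lower quartile. As a set, the 4 windows were thus not rich in CpG for starts near a summit. The capitals of ZNF547 lie in a short tandem repeat. The longest runs shared between the capitals of any 2 genes were 8 bases long, GTGCGCAA in ZNF846 and ZNF865 and TGCGTCCG in ZNF547 and ZNF574, and both were chosen by comparing the printed stretches with each other. Among windows of all protein-coding genes, GTGCGCAA on either strand was in 13 of the 2569 whose start had a summit no farther than 1 kb away (0.506%), against 115 of the 19587 others (0.587%). TGCGTCCG was in 45 of the 2569 (1.75%), against 165 of the 19587 (0.842%). Both runs were thus rare at starts with and without a summit.

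A summit lay inside the gene or at most 1 kb outside at 30 of the 250 chromosome 19 ZNF genes (12%, 8.24 to 16.7), a share near the background of 13.8% over all protein-coding genes. ZNF genes on other chromosomes had one at 56 of 267 (21.0%, 16.2 to 26.4), and other protein-coding genes on chromosome 19 at 150 of 1201 (12.5%, 10.7 to 14.5). The share of the chromosome 19 ZNF genes minus that of ZNF genes elsewhere was −8.97 percentage points, with intervals that overlap between 16.2 and 16.7. The share minus that of the other genes of the chromosome was −0.49 points, within counting error. Chromosomes differ in how often genes carry a summit. The 30 chromosome 19 ZNF genes with a summit compare with 31.2 at the share of non-ZNF genes of the same chromosome, and the 56 elsewhere with 38.2 at the shares of their own chromosomes. These are descriptions of 1 list and not tests, since neighbouring genes are not independent.

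**Figure D1:**
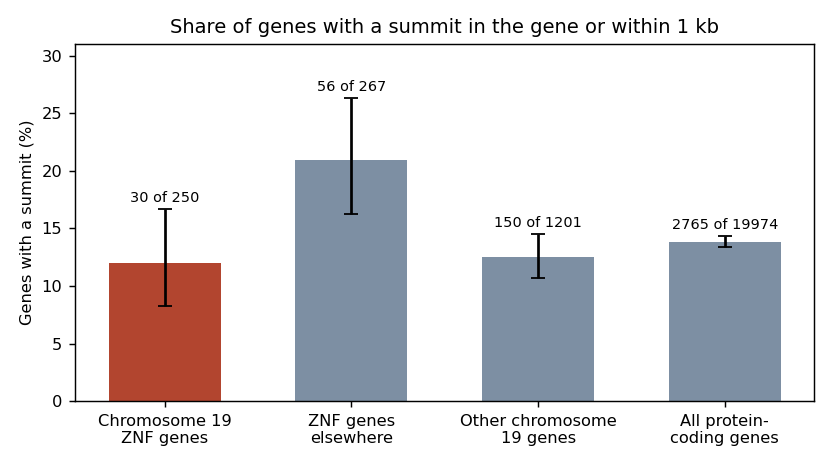
Percentage of genes with a WSTF summit in the gene or within 1 kb, with exact 95% intervals as error bars and the counts above them. Chromosome 19 ZNF genes stand at 12%, below ZNF genes elsewhere at 21.0% and beside other chromosome 19 genes at 12.5%.

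The ZNF genes elsewhere varied by chromosome. On chromosome 10 they had a summit at 7 of 17 (41.2%, 18.4 to 67.1), against 17.4% of non-ZNF genes there. On chromosome 16 it was 10 of 30 (33.3%, 17.3 to 52.8), against 23.5%, and on chromosome 7 it was 8 of 35 (22.9%, 10.4 to 40.1), against 14.3%. On chromosome 1 it was 2 of 21 (9.52%, 1.17 to 30.4), against 10.2%, and on X 0 of 12 (up to 26.5%), against 4.78%. With 12 to 35 genes each, these intervals are wide. Those of chromosomes 10 and 16 lie above that of chromosome 19 (8.24 to 16.7), and those of chromosomes 7, 1 and X overlap it. Chromosome 12 had 5 of 14 (35.7%, 12.8 to 64.9), against 14.6%. Chromosomes 3, 5, 8 and 17 also had shares above those of their non-ZNF genes, and chromosome 9 a lower one. Chromosomes with fewer ZNF genes are not listed.

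The chromosome 19 ZNF genes with a summit each had a single one, and 26 distinct summits served the 30 genes. They were 15.2% of the 171 summits on the chromosome. The score of a summit is the peak caller's own value, read as −log10 q. It had a median of 3.37 at these genes (quartiles 2.33 and 4.68, range 1.41 to 12.1), against 3.29 at ZNF genes elsewhere (quartiles 2.85 and 4.52), 3.84 at other chromosome 19 genes (2.80 and 5.17) and 3.72 in the whole list (2.76 and 5.04). Of the 26 summits, 13 reached the median of the list, and 6 (23.1%) reached a score of 5, against 25.8% of all 2697. The scores at chromosome 19 ZNF genes thus lay within the range common in the list.

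**Figure D2:**
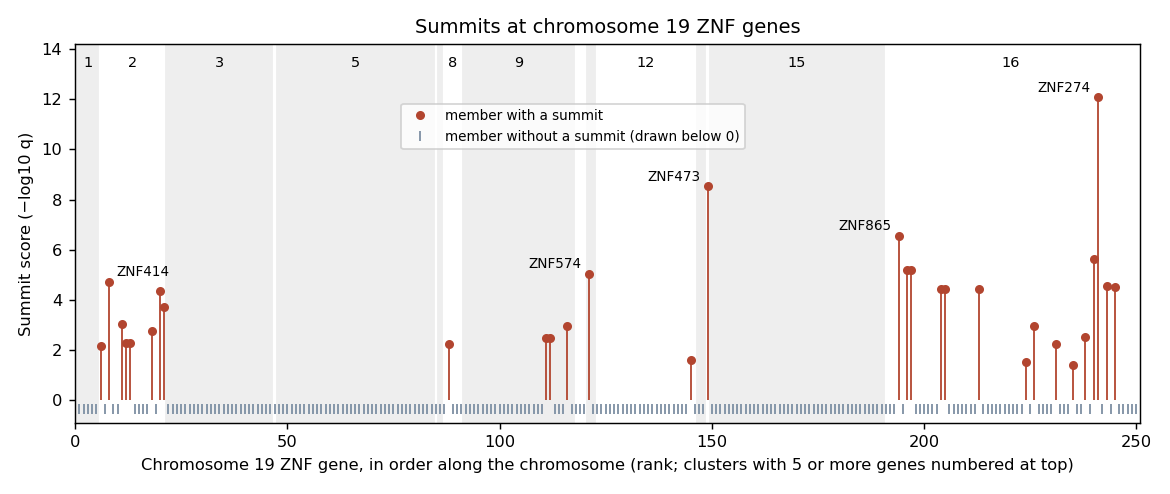
Score of the summit (−log10 q) at each of the 250 chromosome 19 ZNF genes in their order along the chromosome; points on stems are genes with a summit, ticks below 0 are genes without, and shading separates clusters. The 30 genes with a summit sit mainly in clusters 2 and 16, and long stretches of genes have none.

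The highest score belonged to ZNF274, a KRAB zinc finger protein known to recruit SETDB1 to the 3′ ends of other ZNF genes. Its summit, at chromosome 19 position 58183522 (hg38), scored 12.1 and ranked 19 in the list. It lay 461 bp downstream of the start of the gene, which spans 58183061 to 58213562, and not at the gene's own 3′ end. ZNF473, whose product takes part in the 3′ end processing of replication-dependent histone transcripts, came next with 8.52 at position 50026068, 63 bp inside its outer end (50026005 to 50048776). An outer end of VRK3, a kinase gene, also lies within 1 kb of that summit, which therefore counts for both genes. ZNF865 followed with 6.56 at position 55605497, 150 bp upstream of its start. ZNF473 and ZNF865 ranked 90 and 277 in the list.

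The next genes by score formed a close series. ZNF329 had a summit of 5.63 at position 58150733, and ZNF580 and ZNF581 shared 1 of 5.20 at 55643796. For ZNF581 that point lay 147 bp downstream of the listed start. For ZNF580 it lay 326 bp past the 3′ end and 1699 bp from the nearest start, so ZNF580 is counted through its neighbour's promoter. ZNF574 scored 5.04, ZNF414 4.73, ZNF8 4.54 and ZNF837 4.51. ZNF470, its divergent locus ZNF470-DT, which the table lists as protein-coding, and ZNF547 all stood at 4.44, the first pair through the same summit at 56567591. ZNF547 shares its outer start with TRAPPC2B, a trafficking complex gene. ZNF562 (4.37) and ZNF846 (3.72) completed the 15 genes with the highest scores.

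The other 15 genes ranged from 3.02 to 1.41. Among them were ZNF699 (3.02), in which mutations cause a recessive developmental syndrome, and ZNF551 and ZNF607 with 2.97 each. ZNF121 scored 2.76 and ZNF606 2.52. ZNF569 and ZNF570, which lie head to head, shared a summit of 2.50 at position 37467314, and ZNF559 and its read-through locus ZNF559-ZNF177 shared 1 of 2.28 at 9324270. ZNF181 and ZNF552 stood at 2.26, ZNF557 at 2.16, ZNF180 at 1.60 and ZNF134 at 1.54. ZNF417, a KRAB repressor of endogenous retroviruses, had the weakest at 1.41. Shared summits thus joined 8 genes through 4 positions, and counting each summit once, for its nearest gene, left 26 genes (10.4%).

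Summits at these genes lay at transcription starts. Strand and starts were listed for 25 of the 30 genes with a summit, and at 24 of them the summit was within 500 bp of a listed start, 19 of them within 250 bp. The median position was 110 bp downstream of the start (quartiles from 61 bp upstream to 157 bp downstream), with 8 upstream and 17 downstream. The exception was ZNF580. By the outer limits of the gene, 22 of 25 summits (88.0%, 68.8 to 97.5) were nearer the 5′ end than the 3′ end. The 3 others were at ZNF580, ZNF581 and ZNF574. At ZNF581 and ZNF574 the summit lay beside a start inside the gene, 147 bp downstream and 61 bp upstream of it. ZNF846, ZNF329 and ZNF569 also had their summit at a start well inside the outer limits, 17385, 4371 and 1951 bp from the 5′ end.

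**Figure D3:**
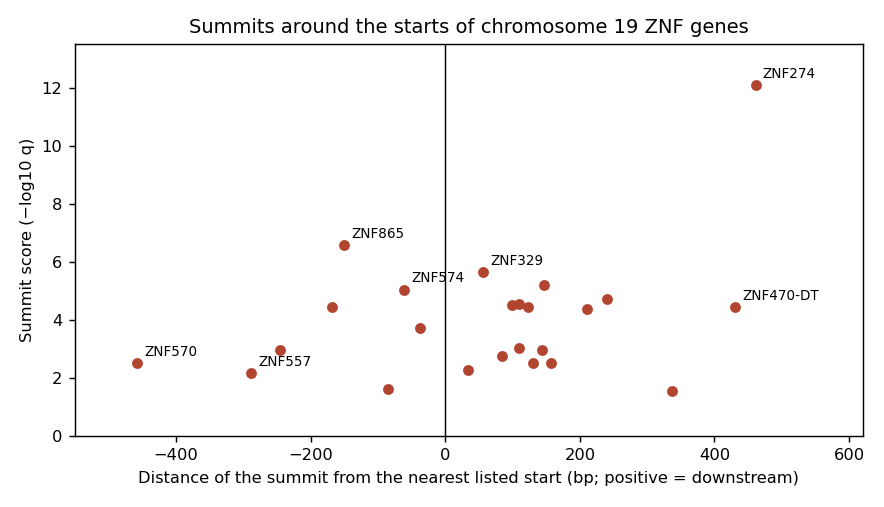
Distance of each summit from the nearest listed start of the gene (bp, positive downstream) against its score (−log10 q), for the 24 chromosome 19 ZNF genes with a listed start within 500 bp. Points spread on both sides of the start, with 16 downstream; ZNF580, at 1699 bp, is not drawn.

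The 3′ ends, which usually carry the zinc finger exons, were set beside the 5′ ends in genes long enough to tell them apart. Among the 213 chromosome 19 ZNF genes of at least 5 kb with a listed strand, 18 had a summit within 1 kb of the 5′ end (8.45%, 5.09 to 13.0) and 0 within 1 kb of the 3′ end, which allows up to 1.72%. ZNF580, at 2469 bp too short for this count, is the gene with a summit just past its 3′ end, and the 31 genes with no listed strand were left out as well. ZNF genes elsewhere had 41 of 208 (19.7%, 14.5 to 25.8) at the 5′ end and 1 (0.481%, 0.012 to 2.65) at the 3′ end. Other chromosome 19 genes had 81 of 782 (10.4%, 8.31 to 12.7) and 9 (1.15%, 0.53 to 2.17). The intervals at the 3′ end overlap, so a lower share at chromosome 19 ZNF genes than at other genes was not detectable. A gene with no summit is not shown to lack WSTF, since the depth is unknown.

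Along the chromosome the genes with a summit were unevenly placed. Joining neighbouring ZNF genes up to 1 Mb apart gave 16 clusters, numbered from the short-arm end. Clusters 2 and 16 held 76 of the 250 genes (30.4%) and 23 of the 30 with a summit (76.7%). In these 2 clusters 30.3% of the genes had a summit (20.2 to 41.9), against 7 of 174 in the other 14 (4.02%, 1.63 to 8.11). The clusters were compared after their counts were seen, so this split is a description.

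Cluster 2, from ZNF557 to ZNF846 (positions 7069703 to 9786160), had a summit at 8 of its 16 genes (50%, 24.7 to 75.3). These were ZNF557, ZNF414, ZNF699, ZNF559, ZNF559-ZNF177, ZNF121, ZNF562 and ZNF846, and 6 of them lay among the 12 neighbours between ZNF317 and ZNF846. Their scores were moderate, with ZNF414 the highest at 4.73. Other protein-coding genes in the same stretch had a summit at 7 of 53 (13.2%, 5.48 to 25.3), among them the ceramide synthase gene CERS4 and the transcobalamin receptor gene CD320.

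Cluster 16, at the long-arm end of the chromosome (55476617 to 58489533), ran from ZNF628 to ZNF446 and had a summit at 15 of 60 genes (25%, 14.7 to 37.9). Other genes in that stretch had 3 of 44 (6.82%, 1.43 to 18.7), namely TRAPPC2B, U2AF2 and EPN1, of which TRAPPC2B shares the summit of ZNF547. Within it, 10 of the 43 genes from ZNF264 to ZNF446 had one (23.3%, 11.8 to 38.6), 3 of the 7 from ZNF628 to ZNF580 and 2 of the 10 from ZNF787 to ZNF835. The cluster held 4 of the 6 summits that scored at least 5, those of ZNF274, ZNF865, ZNF329 and the pair ZNF580 and ZNF581. The others were at ZNF473 and ZNF574.

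The remaining clusters with a summit had few. Cluster 9 (ZNF565 to ZNF573) had 3 of 26 (11.5%, 2.45 to 30.2), at ZNF569, ZNF570 and ZNF607. Cluster 12 (ZNF575 to ZNF296) had 1 of 24 (4.17%, 0.11 to 21.1), at ZNF180, the last gene of its dense part. ZNF181 was the single gene of 5 in cluster 8, ZNF574 of 2 in cluster 11, and ZNF473 stood alone as cluster 14.

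**Figure D4:**
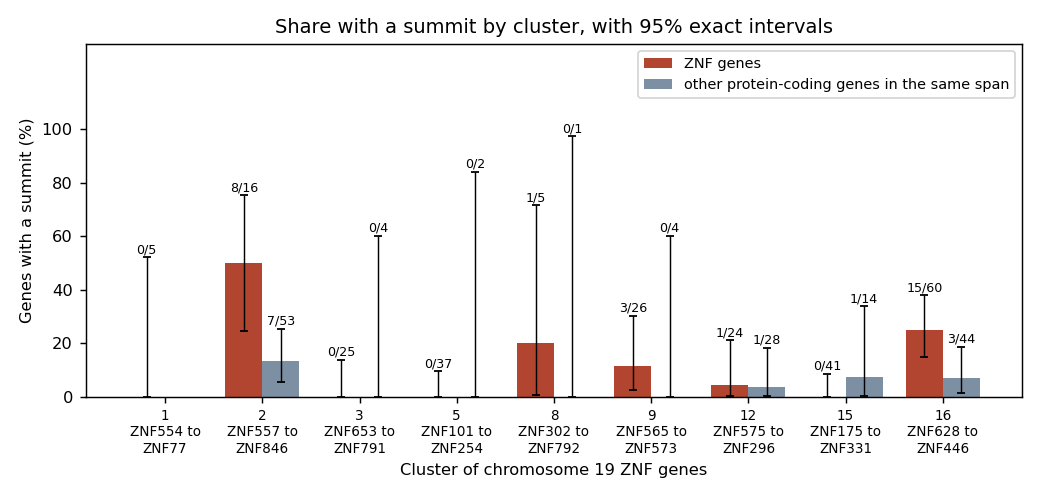
Percentage of genes with a summit in each cluster of 5 or more chromosome 19 ZNF genes, beside other protein-coding genes whose limits overlap the same stretch, with exact 95% intervals and counts. Clusters 2 and 16 stand at 50% and 25%, and clusters 3, 5 and 15 have 0 of 25, 0 of 37 and 0 of 41.

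Among the 6 clusters of at least 20 genes, clusters 3, 5 and 15 had no summit at any ZNF gene. Cluster 3 (ZNF653 to ZNF791, 11483429 to 12633834) had 0 of 25 (up to 13.7%), cluster 5 (ZNF101 to ZNF254, 19668153 to 24129968) 0 of 37 (up to 9.49%) and cluster 15 (ZNF175 to ZNF331, 51571283 to 53580269) 0 of 41 (up to 8.60%). Together these were 0 of 103 genes, in stretches of 7.62 Mb in all. The 3 clusters were pooled because they had none, so this count is a description and bounds no rate. They include well-studied genes: ZNF91 and ZNF93, repressors of SVA and LINE retrotransposons, in cluster 5, and ZNF350, a partner of the BRCA1 protein, and the imprinted gene ZNF331 in cluster 15. The nearest summit to ZNF91 was 3528 kb away, and that to ZNF93 124 kb. In these stretches 3 summits were called at all, at ZNF433-AS1 in cluster 3 (3.02), at the pseudogene ZNF56P and LINC00663 in cluster 5 (5.27) and at SPACA6 in cluster 15 (2.87).

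Other protein-coding genes in the stretches of clusters 3, 5 and 15 were few. They numbered 20, and 1 had a summit (5%, 0.13 to 24.9), an interval that holds the background of 13.8%, so these genes do not show whether the stretches or their ZNF genes lacked summits. Long gaps between summits were found inside these clusters and elsewhere on the chromosome. Between positions 19776724 and 32406150 no summit was called for 12.6 Mb, across 37 ZNF genes and 10 other protein-coding genes. That gap spans the centromere. Over most of cluster 15 a gap of 2.19 Mb, from 51690755 to 53882254, held 40 ZNF genes and 14 others. Outside the 3 clusters, the gap of 2.42 Mb between 42076105 and 44500607 held 24 ZNF genes and 39 others, and that of 1.81 Mb between 14517862 and 16324727 held 1 ZNF gene and 42 others. The longest run of consecutive ZNF genes without a summit had 66 genes, from ZNF653 to ZNF302, and the next had 44, from ZNF175 to ZNF524.

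Over all 16 stretches, a summit was found at 12% of the 250 ZNF genes (8.24 to 16.7), against 7.1% of 169 other protein-coding genes (3.72 to 12.1), with overlapping intervals. Other chromosome 19 genes outside the stretches had one at 138 of 1032 (13.4%, 11.4 to 15.6). These 3 intervals all overlap, but those of other genes inside and outside the stretches only between 11.4 and 12.1. Overlap does not show equal shares, and the differences were not tested. The 220 ZNF genes with no summit lay at a median of 292 kb from the nearest one, and 153 of them (69.5%) were over 100 kb away. The 1051 other chromosome 19 genes with none lay at a median of 92.6 kb, and 46.6% were over 100 kb away. Just outside the 1 kb limit were ZNF544 (1610 bp), ZNF358 (1612 bp) and ZNF530 (1857 bp). Of the genes counted, ZNF570 (458 bp) and ZNF580 (326 bp) had the summits farthest outside the gene.

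Base composition at the starts was compared next, as a property that the counting had not used. Windows of chromosome 19 ZNF genes with a summit within 1 kb of the start (25 windows) had a median of 62.7% G and C and 22 CpG (quartiles 18 and 28), and those without (246) had 59.7% and 20 CpG (14 and 25). The difference was small beside the spread among windows. It was larger at other protein-coding genes of the chromosome, with 30 CpG (21 and 37) near a summit, against 19 (8 and 29) without, and at ZNF genes elsewhere, with 30 (22.8 and 36.8), against 22 (14 and 29.8). CpG content differed among the clusters. Cluster 5 had a median of 10 CpG per window (quartiles 9 and 13.8), and its observed-to-expected CpG ratio was 0.443. Cluster 15 had 24 CpG (20 and 27) and a ratio of 0.827, and cluster 16 had 23 (16 and 30) and a ratio of 0.820. Clusters 15 and 16 had close medians, with wider quartiles in cluster 16, and 0 of 41 and 15 of 60 of their genes had a summit. Both were compared after their counts were seen, and a link between CpG content and summits was not tested.

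**Figure D5:**
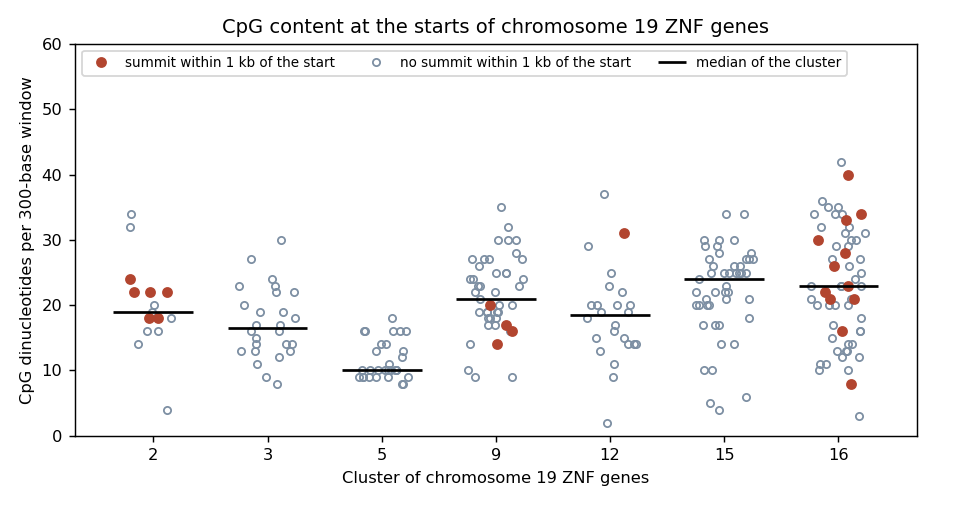
Number of CpG dinucleotides in each 300-base window around a listed start, by cluster of chromosome 19 ZNF genes; filled points are windows with a summit within 1 kb of the start, open points those without, and lines are medians over all windows of a cluster. Cluster 5 is low with a median of 10, and the medians of cluster 15 (24) and cluster 16 (23) are close.

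Short motifs were counted on both strands of the same windows. CCGGAAG, the site of ETS factors, was in 11 of the 25 windows with a summit near the start (44.0%). It was in 100 of the 246 without (40.7%), against 10.3% of all 35116 windows in the table. At ZNF genes elsewhere CCGGAAG was in 27.6% of windows near a summit and 28.6% without. At other chromosome 19 genes it was in 19.1% and 12.4%. Its share varied widely among clusters 2, 3, 5, 9, 12, 15 and 16, from 2 of 26 windows in cluster 3 (7.69%) to 22 of 30 in cluster 5 (73.3%), neither of which had a summit at a ZNF gene, with 33 of 61 in cluster 16 (54.1%). GGGCGG, bound by SP1 and KLF factors, was in 16 of 25 (64.0%) and in 160 of 246 (65.0%), against 45.0% of all windows. At ZNF genes elsewhere GGGCGG was in 72.4% of windows near a summit and 53.0% without. At other chromosome 19 genes it was in 75.2% and 64.8%. CCAAT, the NF-Y site, was in 5 of 25 (20%) near a summit and in 130 of 246 (52.8%) without, against 34.6% of all windows. That count differed among clusters: CCAAT was in 23 of 26 windows of cluster 3 (88.5%) and 29 of 30 of cluster 5 (96.7%). Cluster 15, which like these had no summit at a ZNF gene, had CCAAT in 14 of 47 (29.8%). Among clusters with a summit, it was in 4 of 15 in cluster 2 (26.7%) and 35 of 61 in cluster 16 (57.4%). In cluster 9 CCAAT was in 13 of 45 (28.9%) and in cluster 12 in 5 of 24 (20.8%). At ZNF genes elsewhere it was in 39.7% of windows near a summit and 38.9% without, and at other chromosome 19 genes in 47.5% and 34.2%. TGACGTCA, the CREB and ATF site, was in 3 of 25 (12%), in 7 of 246 (2.85%) and in 1.85% of all windows. This count also differed among clusters: of the 10 windows with it, 5 were among the 15 of cluster 2 (33.3%). At ZNF genes elsewhere TGACGTCA was in 8.62% of windows near a summit and 2.14% without. At other chromosome 19 genes it was in 2.13% and 3.08%. AAGATGGCG (YY1), GCGCATGC (NRF1), CTCGCGAG, CACGTG and AGGGGGCGC were each in at most 2 of the 25 windows. With 25 windows, some of which overlap, these counts are imprecise. Another gene's start on the opposite strand lay within 1 kb at 6 of 25 windows near a summit (24.0%) and 55 of 246 without (22.4%). At other chromosome 19 genes it was 59 of 141 (41.8%) and 180 of 1136 (15.8%). At ZNF genes elsewhere it was 28 of 58 (48.3%) and 60 of 234 (25.6%).

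The partners of KRAB zinc finger proteins formed a list of 26 genes across the genome, and 7 had a summit (26.9%, 11.6 to 47.8), against the same background of 13.8%. ATF7IP, the SETDB1 cofactor, had the highest score at 9.81, 62 bp downstream of a start. MORC2, an ATPase that acts with the HUSH silencing complex, had 8.38, and the maintenance DNA methyltransferase gene DNMT1, on chromosome 19, had 5.86 at 38 bp upstream of a start. SUMO2 (5.01), the deacetylase gene HDAC2 (3.63), the HUSH scaffold gene TASOR (3.13) and the HP1 gene CBX3 (1.73) were the others. TRIM28 and SETDB1 themselves had none.

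Other zinc finger families on chromosome 19 were small. ZFP genes had 0 of 5 and ZSCAN genes 0 of 7, which allow up to 52.2% and 41.0%, and ZBTB genes 2 of 3 (9.43 to 99.2%). Among ZNF loci of the chromosome that are not protein-coding, 5 of 54 had a summit (9.26%, 3.08 to 20.3). They were ZNF433-AS1, ZNF606-AS1, ZNF8-DT and ZNF8-ERVK3-1 among 34 lncRNA genes and ZNF56P among 12 transcribed pseudogenes, and 8 other pseudogenes had none. The summits of ZNF606-AS1, ZNF8-DT and ZNF8-ERVK3-1 are those of ZNF606 and ZNF8. No share over all non-coding genes stands beside the 5 of 54, which is therefore not read as high or low.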

How the data were processed

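WSTF ChIP-seq in SW620 cells was analysed from 1 deposited list of 2697 summits. The submitters' processing notes name MACS2 2.2.7.1, Bowtie2 2.4.4, Trimmomatic 0.39 and build hg38. Per the design text peaks were called against input. Whether replicates were pooled is not stated in the sources used here. The deposited score of each summit was read as −log10 of a q-value, because its lowest value is 1.31. The 2 samples were not compared.

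Genes came from the RefSeq table of GRCh38.p14, whose coordinates are those of hg38, and gave outer limits without exons; strand and starts came from its promoter windows. A gene had a summit if 1 lay inside it or within 1 kb. The planned protein features were not computed, and a planned entry of the list of KRAB partners is not reported here. The hit search returned all 200 planted genes when tested on simulated data. Those genes were longer than 5 kb and isolated, with the planted summit inside the gene. Summits in the 1 kb margin and overlapping genes were thus not tested. All genes with a summit are named, the 15 highest first. Genes, lists and the cluster rule were chosen with earlier results of these data known. Python 3.11.15, pandas 2.3.3, SciPy 1.17.1.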

Additional observations from a re-analysis of the deposited data

How the results depend on the processing

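Of 36 alternative values, 30 stayed within a set limit around the value reported. For a share or the median score the limit was the counting error, and for a count 1.5 times the value. For a difference it was 4.22 points, taken from the interval of the chromosome 19 ZNF share alone. The error of the other share was left out, and a change from −0.49 to 3.02 points stayed within that limit. Leaving out the 3 highest-scoring summits changed no value, because none of them lay at a gene of the sets compared. Those values count among the 30 but could not have differed. The share of chromosome 19 ZNF genes with a summit, 12%, ranged from 9.60% (inside the gene only) to 14.4% (window of 5 kb), except with summits at or above the list median of 3.72, where fewer summits were counted and it was 6%. With those summits the difference from ZNF genes elsewhere, −8.97 percentage points, was −4.11, and the median score, 3.37, was 4.73 by construction. That difference stayed negative in all alternatives, down to −10.2 for genes of 5 to 50 kb, and was −7.17 with each set taken relative to its own chromosomes. The difference from other chromosome 19 genes, −0.49 points, was 4.90 when the others were those in the cluster stretches, an alternative chosen after seeing the data like that by chromosome and that without hyphenated symbols, and 3.02 inside genes only. Clusters numbered 26 when genes were joined up to 250 kb apart and 8 up to 2 Mb, against 16. No paired analysis was possible because the 1 list has no replicates. Read depth is unknown and limits every absence.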
